A study of Mus musculus with 2 samples.

Results

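Tubulin isotypes are the products of separate genes that encode closely related α- and β-tubulins, the subunits of microtubules. The isotypes read here were 10 of the 28000 genes in the deposited counts, chosen by symbol. They were the 7 β-tubulin genes *Tubb3*, *Tubb2a*, *Tubb2b*, *Tubb4a*, *Tubb4b*, *Tubb5* and *Tubb6* and the 3 α-tubulin genes *Tuba1a*, *Tuba1b* and *Tuba1c*. All 10 had UMIs in both libraries. The question was whether a higher level of *Tubb3* in cells of the *Hira* knockout (KO) library was shared by the other isotypes.

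An α- and a β-tubulin form the dimer that polymerises into microtubules, which carry cargo, shape cell processes and build the mitotic spindle. *Tubb3* encodes the class III β-tubulin, widely used as a marker of neurons and also found in neural crest derivatives and melanocytic cells. *Tubb2a*, *Tubb2b*, *Tubb4a* and *Tuba1a* are abundant in the nervous system, whereas *Tubb5*, *Tubb4b* and *Tuba1b* are expressed in most tissues and *Tubb6* is mainly found outside the nervous system.

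The study deleted the histone chaperone gene *Hira* in the melanocytic lineage of mice and profiled skin cells of E15.5 embryos by single-cell RNA sequencing. The WT library came from a *TyrCre::Hira* wt/wt embryo and the KO library from a *TyrCre::Hira* fl/fl embryo, and both carried a *Rosa26-LSL-tdTomato* reporter on a mixed background close to C57BL/6J. Live tdTomato+ cells of trunk skin were sorted and counted on the 10x Chromium platform with 3′ chemistry. The *Tyr* promoter that drives Cre is also active in other neural crest lineages, so the sorted cells were not melanoblasts alone. With 1 library per genotype there was no replicate check and no test, and a genotype cannot be told apart from its embryo.

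Depth was greater per cell in KO. Its 846 barcodes carried 5049514 UMIs (median 5152.5), against 7073939 UMIs over 1546 barcodes for WT (median 3961). After filtering, 1540 WT and 828 KO cells remained. The libraries shared 0 barcodes. For each class, UMIs of its cells were added up and are given per 1000000 UMIs (CPM), and differences are log2 ratios of KO over WT. A 3′ UMI is counted once per captured transcript whatever its length, so CPM values of different genes are compared on this scale. The scale leaves out differences in capture and in the sequence that a gene shares with others. The 95% intervals given below cover counting error only.

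*Hira* itself had 35 UMIs in WT melanoblast-like cells (13.8 CPM) and 3 in KO (3.53 CPM), log2 ratio -1.97 (-4.31 to -0.30). Glial-like cells had 18 and 9 *Hira* UMIs (-0.55, -1.89 to 0.68), and mesenchymal-like cells 8 and 16 (0.53, -0.78 to 1.96). *Hira* was therefore lower in KO melanoblast-like cells, and a difference was not detectable at this depth in the other 2 classes. The deleted part of *Hira* is not given in the sources used here, and 3′ tags outside it would not check the label. In the melanoblast-like class, *Xist*, the RNA of the inactive X chromosome, reached 6144 UMIs in WT but 2 in KO. *Eif2s3y* on the Y chromosome showed the reverse, with 0 and 47. The WT embryo was thus female and the KO embryo male, and genotype and sex cannot be told apart.

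Cells were clustered without the tubulin genes and clusters were named from markers. The melanoblast-like class held 536 WT and 139 KO cells, the glial-like class 446 and 254, and the mesenchymal-like class 215 and 251. Macrophage-like cells, used as a background for *Tubb3*, numbered 146 and 36. *Dct*, a melanoblast enzyme gene, stood at 3049 (WT) and 2904 CPM (KO) in melanoblast-like cells, and the Schwann lineage gene *Fabp7* at 921 and 855 CPM in glial-like cells. All 12 melanoblast markers had UMIs in the WT class, and *Tyrp1* was at 0 in the KO class. The mesenchymal-like class was held mainly by cluster 2 in WT (149 of 215 cells) and by cluster 16 in KO (142 of 251 cells). No cluster was named neuron or muscle.

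*Tubb3* was higher in KO in both the melanoblast-like and the glial-like class. In melanoblast-like cells it had 164 UMIs in WT (64.6 CPM, 55.1 to 75.3) and 102 in KO (120.0 CPM, 97.8 to 146), which is 1.86-fold (log2 0.89, 0.52 to 1.26). In glial-like cells it had 67 UMIs in WT (41.1 CPM, 31.8 to 52.2) and 92 in KO (77.0 CPM, 62.1 to 94.4), which is 1.87-fold (log2 0.91, 0.44 to 1.38). The intervals of the 2 libraries did not overlap in either class. With each cell thinned to 2000 UMIs, the melanoblast-like ratio was 0.52 and its interval, -0.26 to 1.25, held 0. The thinned glial-like ratio was 0.73, with an interval above 0.

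*Tubb3* was near background elsewhere. Mesenchymal-like cells had 6 WT and 10 KO UMIs (5.64 and 6.78 CPM, log2 ratio 0.27, -1.34 to 2.01), in clusters 2 and 16 mainly. Macrophage-like cells had 1 WT UMI (1.22 CPM) and 0 in KO, where the limit of 3 counts is 10.7 CPM. In WT the order was melanoblast-like, glial-like, mesenchymal-like and macrophage-like, and the last 2 did not differ beyond their intervals. In KO, melanoblast-like cells stood above glial-like cells and these above the other 2 classes, whose order was not settled.

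**Figure D1:**
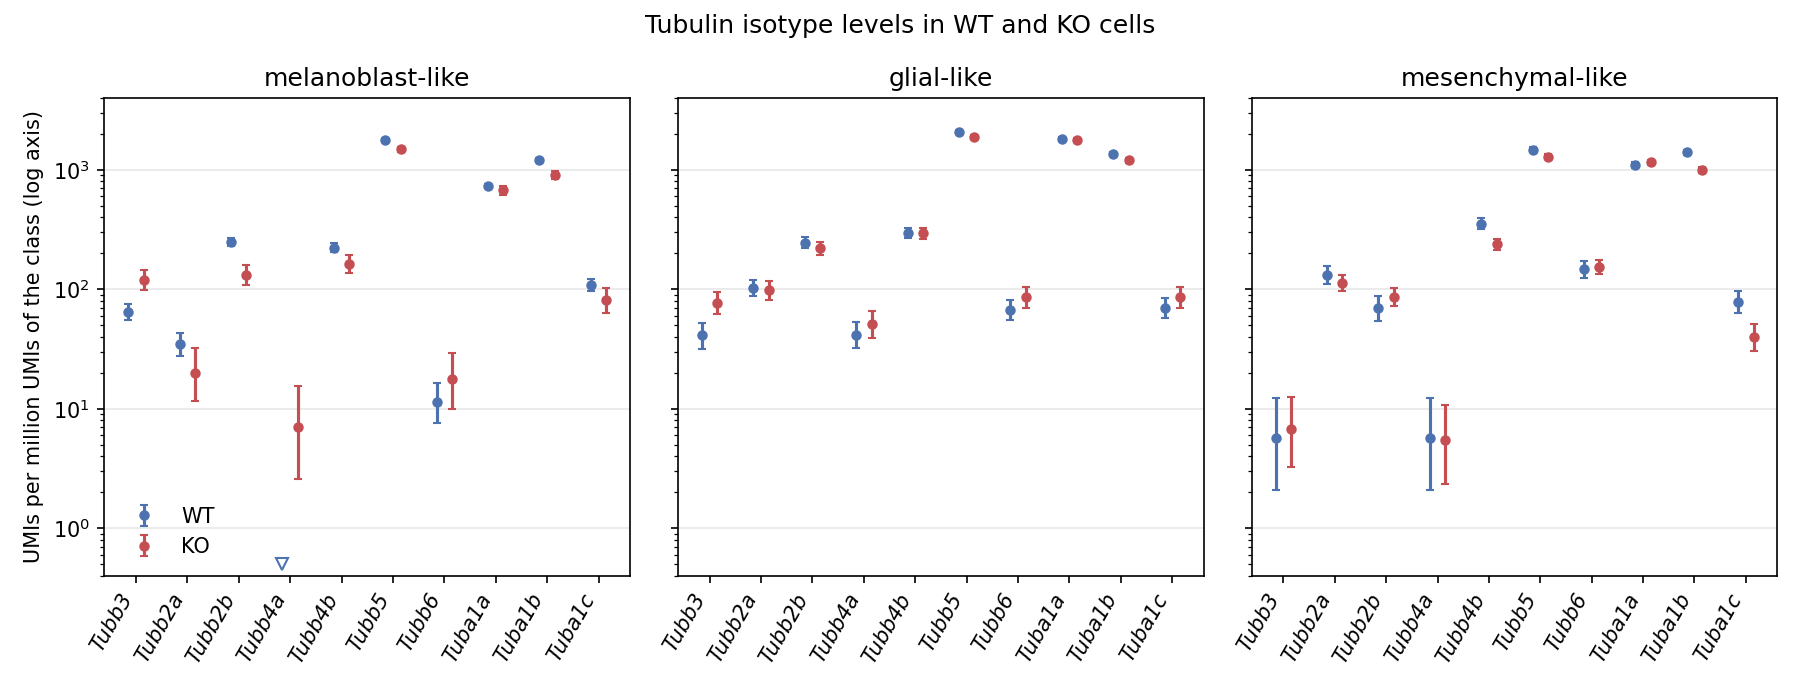
Level of each tubulin isotype in CPM of the class (log axis) in WT and KO cells, with 95% Poisson intervals and open triangles for 0 UMIs. In melanoblast-like cells *Tubb3* lay at 64.6 (WT) and 120.0 CPM (KO), far below *Tubb5* at 1795 and 1482 CPM.

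More KO cells had a *Tubb3* UMI. Among melanoblast-like cells the share was 18.8% in WT against 40.3% in KO, at median depths of 4335 and 5654 UMIs. In glial-like cells it was 10.99% and 26.0%, at 3378.5 and 4208 UMIs. In macrophage-like cells, at 4850.5 and 6796.5 UMIs, it was 0.685% and 0%, so the shares in melanoblast-like and glial-like cells stood above this background. After thinning to 2000 UMIs per cell, the melanoblast-like shares were 8.76% (6.49 to 11.5) and 14.4% (9.02 to 21.3), and 11 WT and 0 KO cells were left out. The thinned glial-like shares were 8.07% (5.62 to 11.1) and 13.4% (9.42 to 18.3), with 37 and 8 cells left out. After thinning, the intervals of these shares overlapped between WT and KO in both classes, while the ratio of *Tubb3* UMIs in glial-like cells stayed above 0 with its interval.

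*Tubb3* UMIs were spread over many cells. In WT melanoblast-like cells, 67 cells had 1 UMI, 23 had 2 and 11 had 3 or more, up to 9 in a cell. In KO, 29 cells had 1 UMI, 16 had 2 and 11 had 3 or more, up to 6. In glial-like cells the most in a cell was 3 in both libraries. The highest count in a melanoblast-like cell was thus in WT, not in KO.

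*Tubb2a* and *Tubb2b* did not share the *Tubb3* difference in melanoblast-like cells, and *Tubb4a* pointed the same way as *Tubb3* at a low level. *Tubb2b*, needed for neuronal migration, stood at 249 CPM (WT) and 133 CPM (KO), a ratio of -0.91 (-1.21 to -0.61). *Tubb2a* had 88 and 17 UMIs (-0.79, -1.64 to -0.03). Both ratios were below 0 under all 11 alternatives, but *Tubb2b* was at -0.43 (-0.80 to -0.08) after clustering with at least 500 genes per cell, and the thinned *Tubb2a* interval held 0 (-0.93, -2.64 to 0.42). *Tubb4a*, mainly a brain isotype, had 0 UMIs in WT and 6 in KO, with a lower limit of 1.81 on the log2 ratio. Its KO level of 7.06 CPM was close to the 5.43 CPM of KO mesenchymal-like cells. The ratios of *Tubb3* and *Tubb2b* thus pointed in opposite directions in the same cells.

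The widely expressed isotypes were also lower in KO melanoblast-like cells, but the ratios of *Tubb5*, *Tubb4b*, *Tuba1b* and *Tuba1c* turned to above 0 when the cells were clustered again with at least 500 genes per cell. *Tubb5*, the most abundant isotype, stood at 1795 (WT) and 1482 CPM (KO) (-0.28, -0.37 to -0.19). *Tubb4b* stood at 223 and 164 CPM (-0.45, -0.73 to -0.18). *Tuba1b*, the most abundant α-tubulin in these cells, stood at 1202 and 906 CPM (-0.41, -0.52 to -0.29), and *Tuba1c* at 109 and 81.2 CPM (-0.43, -0.83 to -0.04). The intervals of *Tuba1a* (-0.13, -0.26 to 0.01) and *Tubb6* (0.63, -0.38 to 1.57) held 0. In the clustering with at least 500 genes per cell *Tuba1a* was at 0.28 (0.12 to 0.45). *Tubb6* was above 0 under all 11 alternatives (0.50 to 2.14), with its interval above 0 after thinning and after clustering with at least 500 genes per cell. In that other clustering, a cluster of 4 WT and 93 KO cells led by haemoglobin genes was left unnamed, although 9 of 12 melanoblast markers were raised in it. This left 55 KO melanoblast-like cells, and *Tubb3* was still higher in KO (1.32).

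In WT melanoblast-like cells the order by CPM was *Tubb5*, *Tuba1b*, *Tuba1a*, *Tubb2b*, *Tubb4b*, *Tuba1c*, *Tubb3*, *Tubb2a*, *Tubb6* and *Tubb4a*. Sequence shared with other genes makes the places of the α-tubulins, *Tubb2a* and *Tubb4b* in this order uncertain. The neighbours *Tubb2b* (230.0 to 269) and *Tubb4b* (205 to 242) overlapped in their intervals. In KO, *Tubb3* at 120.0 CPM (97.8 to 146) overlapped *Tubb2b* at 133 CPM (109.6 to 159.8), whereas in WT the 2 genes stood at 64.6 and 249 CPM. The gap between *Tubb3* and *Tubb2b* was therefore smaller in KO melanoblast-like cells.

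In glial-like cells most other isotypes were at like levels in both libraries. *Tuba1a*, the most abundant α-tubulin there, stood at 1822 (WT) and 1772 CPM (KO) (-0.04, -0.12 to 0.04). *Tubb2b* stood at 247 and 220.1 CPM (-0.16, -0.39 to 0.06), and *Tubb4b* at 297 and 296 CPM. *Tubb4a* stood at 41.7 and 51.1 CPM (0.29, -0.23 to 0.81). The intervals of *Tubb5* (-0.16, -0.23 to -0.08) and *Tuba1b* (-0.18, -0.27 to -0.08) lay below 0. *Tubb6* (0.35, -0.05 to 0.75) and *Tuba1c* (0.30, -0.10 to 0.70) had ratios above 0 with intervals that held 0, and *Tuba1c* was at 0.03 after thinning. *Tubb2a* stood at 102 and 98.8 CPM (-0.05, -0.41 to 0.30).

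In mesenchymal-like cells, held by clusters 2 in WT and 16 in KO, *Tuba1c* (78.9 and 40.0 CPM, -0.98, -1.49 to -0.48), *Tubb4b* (355 and 239 CPM, -0.57, -0.79 to -0.36), *Tuba1b* (1404 and 1000.3 CPM, -0.49, -0.59 to -0.38) and *Tubb5* (1478 and 1294 CPM, -0.19, -0.29 to -0.09) were lower in KO, with *Tubb5* at 0.0035 once the clusters were weighted by WT cell numbers. *Tuba1c* was at -1.72 after thinning to 2000 UMIs per cell. Within cluster 2 alone, *Tuba1c* (-1.03, -1.81 to -0.31), *Tubb4b* (-0.33, -0.61 to -0.06) and *Tuba1b* (-0.28, -0.42 to -0.14) were lower in KO. The *Tubb5* interval held 0 there (-0.06, -0.19 to 0.07). Within cluster 16 alone, *Tuba1b* (0.50, 0.20 to 0.82) and *Tubb5* (0.32, 0.08 to 0.57) were higher in KO, *Tubb4b* was at 0.59 (-0.06 to 1.31), and *Tuba1a* (-0.21, -0.41 to -0.01) was lower. Over the whole class *Tubb2a*, *Tubb2b*, *Tubb4a*, *Tubb6* and *Tuba1a* had intervals that held 0, but *Tubb2b* was at 0.67 with its interval above 0 once cells called by Scrublet were left out, and the *Tuba1a* interval lay above 0 under 3 alternatives. In macrophage-like cells, the intervals of *Tubb2a* (0.57, 0.02 to 1.10), *Tubb4b* (0.54, 0.09 to 0.97) and *Tuba1a* (0.69, 0.16 to 1.21) lay above 0. The 12 mesenchymal markers summed to 805 and 4132 CPM in that class (none at 0, led by *Col1a1* in WT and *Col1a2* in KO), and the 7 neutrophil markers to 603 and 3173 CPM (led by *S100a8*, with *Ltf* and *Retnlg* at 0 in both). Its 11 keratinocyte markers summed to 44.0 and 447 CPM, led by *Krt10*, with *Trp63* at 0 in both, *Krt5* and *Krtdap* in WT and *Epcam* in KO. It held 2 clusters, of 50 and 96 WT cells and of 18 KO cells each. The part of these differences in the isotype ratios was not tested. Differences between classes were not tested.

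**Figure D2:**
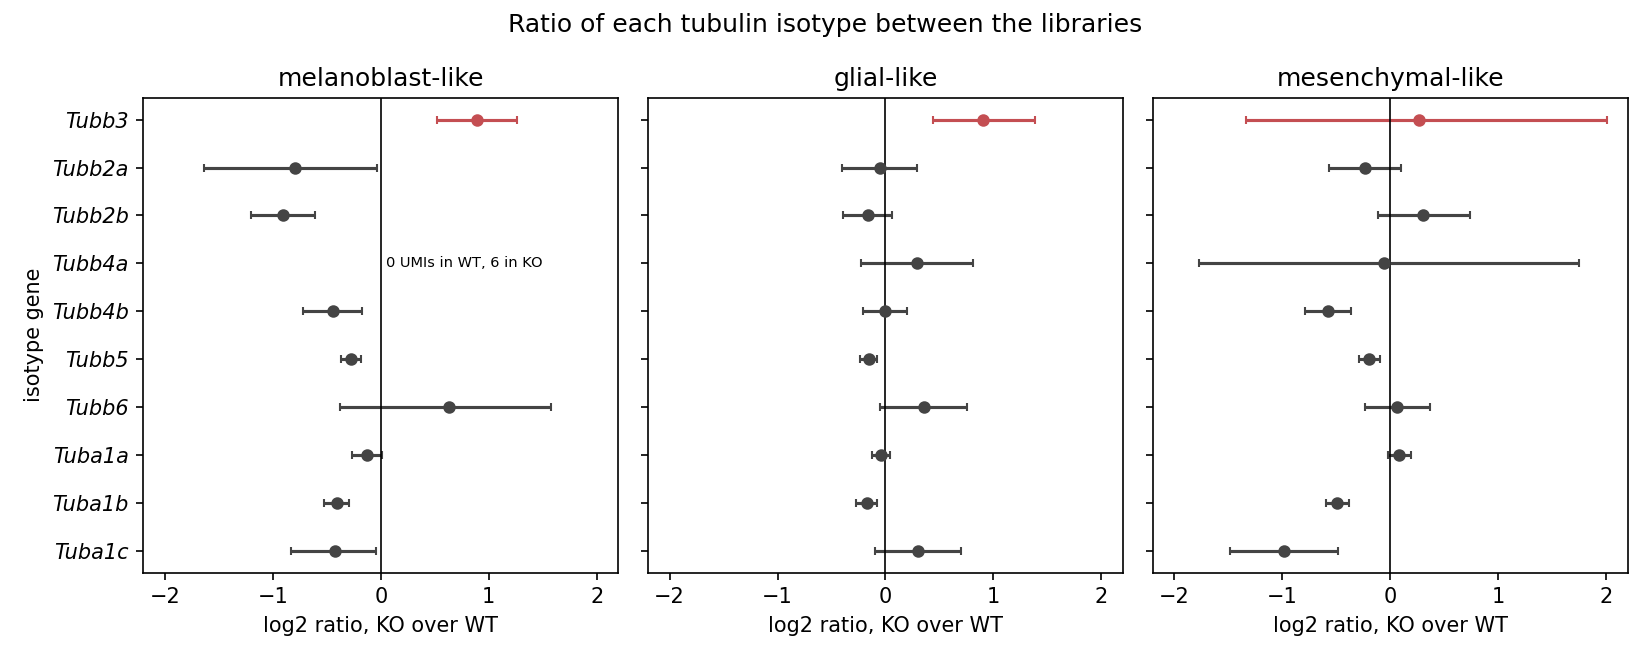
Log2 ratio of KO over WT for each tubulin isotype in 3 classes, with 95% counting intervals. *Tubb3* lay at 0.89 in melanoblast-like and 0.91 in glial-like cells, and *Tubb2b* at -0.91 in melanoblast-like cells, where *Tubb5*, *Tubb4b*, *Tuba1b* and *Tuba1c* lay below 0 but above 0 after clustering with at least 500 genes per cell.

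Taken as a sum, the 9 other isotypes were lower in KO, at 4359 and 3483 CPM in melanoblast-like cells (-0.32, -0.38 to -0.26, but 0.23 after clustering with at least 500 genes per cell). The sum stood at 6094 and 5688 CPM in glial-like cells (-0.10, -0.14 to -0.05) and at 4767 and 4095 CPM in mesenchymal-like cells (-0.22, -0.27 to -0.17). In macrophage-like cells it was 0.15 (0.03 to 0.26). The ratio of α- to β-tubulin UMIs in melanoblast-like cells was 0.860 for WT and 0.854 for KO and 1.13 in both libraries of glial-like cells. The balance between the families therefore differed little between WT and KO while the β-tubulin make-up differed.

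Within the β-tubulins, a comparison that does not depend on scaling to library size, *Tubb3* made up 2.72% (2.32 to 3.16) of UMIs for WT and 6.17% (5.06 to 7.45) for KO in melanoblast-like cells, a log2 odds ratio of 1.24 (0.86 to 1.61). In glial-like cells its share was 1.42% and 2.85% (1.02, 0.55 to 1.502). In mesenchymal-like cells, of clusters 2 and 16 mainly, it was 0.257% and 0.357% (0.48, -1.13 to 2.22). *Tubb5* made up 75.5% and 76.3% in melanoblast-like cells, and *Tubb2b* 10.5% and 6.84%. *Tubb6* made up 2.34% and 3.19% in glial-like cells (0.46, 0.05 to 0.87), an interval above 0 as for *Tubb3*. The same held for *Tubb2b* in mesenchymal-like cells of clusters 2 (WT) and 16 (KO) mainly (3.17% and 4.54%, 0.54, 0.10 to 0.98) and *Tubb4b* in macrophage-like cells (13.5% and 18.7%, 0.56, 0.07 to 1.03). Within cluster 16 the *Tubb2b* share was lower in KO, with log2 ratios of -0.10 (-0.79 to 0.66) for *Tubb2b* and 0.32 for *Tubb5*. Within cluster 2 the *Tubb2b* ratio was 0.03 (-0.66 to 0.69). Among α-tubulins, *Tuba1a* made up 35.9% and 40.5% in melanoblast-like cells, 56.1% and 57.9% in glial-like cells, 42.5% and 52.8% in mesenchymal-like cells (clusters 2 in WT and 16 in KO mainly, log2 odds 0.60, 0.45 to 0.75), and 7.60% and 10.7% in macrophage-like cells, where *Tuba1b* took 81.4% and 78.5%. Within cluster 16 the *Tuba1a* share was lower in KO, with log2 ratios of -0.21 for *Tuba1a* and 0.50 for *Tuba1b*. Within cluster 2 it was higher (ratios of -0.01 and -0.28).

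Isotypes with at least 50 UMIs over both libraries were set beside all genes read in this way. In melanoblast-like cells, 8 isotypes were read, and 1, *Tubb3*, was at least 1.5-fold higher in KO, beside 6.74% of 5429 genes. There 2 isotypes, *Tubb2a* and *Tubb2b*, were at least 1.5-fold lower, beside 6.54% of genes. In glial-like cells all 10 isotypes were read, 1 of them (*Tubb3*) was past 1.5-fold higher, beside 6.34% of 5678 genes, and 0 were lower, beside 5.53%. In mesenchymal-like cells 8 were read, 0 were higher, beside 549 of 5004 genes, and 1, *Tuba1c*, was lower, beside 6.31%. The median log2 ratio of the isotypes was -0.42, -0.02 and -0.21 in the 3 classes, beside -0.02, -0.03 and -0.02 for all genes. A higher ratio than that of *Tubb3* was found for 123 genes in melanoblast-like and 123 in glial-like cells (2.27% and 2.17%).

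Since the mix of clusters differed between libraries, ratios were also read within the 9 clusters with at least 20 cells in each library. The *Tubb3* interval lay above 0 in 3 of them and below 0 in 0. In the cycling melanoblast-like cluster 1, led by *Pbk*, *Nusap1* and *Top2a*, *Tubb3* stood at 74.3 (WT) and 191 CPM (KO) (1.37, 0.84 to 1.89). In melanoblast-like cluster 5, led by *Mt2*, it stood at 64.8 and 76.5 CPM, and the interval (0.24, -0.40 to 0.86) held 0. *Tubb2b* was lower in KO in both, with ratios of -0.90 and -0.89. The *Tubb3* difference of melanoblast-like cells was thus seen in cluster 1, which held 154 WT and 35 KO cells. Clusters 0 and 17 of this class were not read, and cluster 17 had *Cenpa* and *Ccnb2* among its leading genes. The difference between clusters was not tested.

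Among glial-like clusters, *Tubb3* had 6 WT and 29 KO UMIs in cluster 7, led by *Sostdc1* (12.3 and 97.1 CPM, 2.98, 1.69 to 4.54). In the cycling cluster 15, led by *Cdc25c*, it stood at 56.5 and 135 CPM (1.25, 0.32 to 2.23). In cluster 4, led by *Pcdh20*, it stood at 65.5 and 81.0 CPM, with an interval (0.31, -0.51 to 1.11) that held 0, and cluster 8 had 0 and 4 UMIs. *Tubb2b* was lower in KO in cluster 7 (-0.76). Among the 9 clusters, *Tubb5* and *Tuba1b* were most abundant in the cycling clusters 15 and 1, with *Tubb5* at 3350 and 3269 CPM in cluster 15. Clusters 0, 17 and 11, with under 20 KO cells each, were not read in this way.

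**Figure D3:**
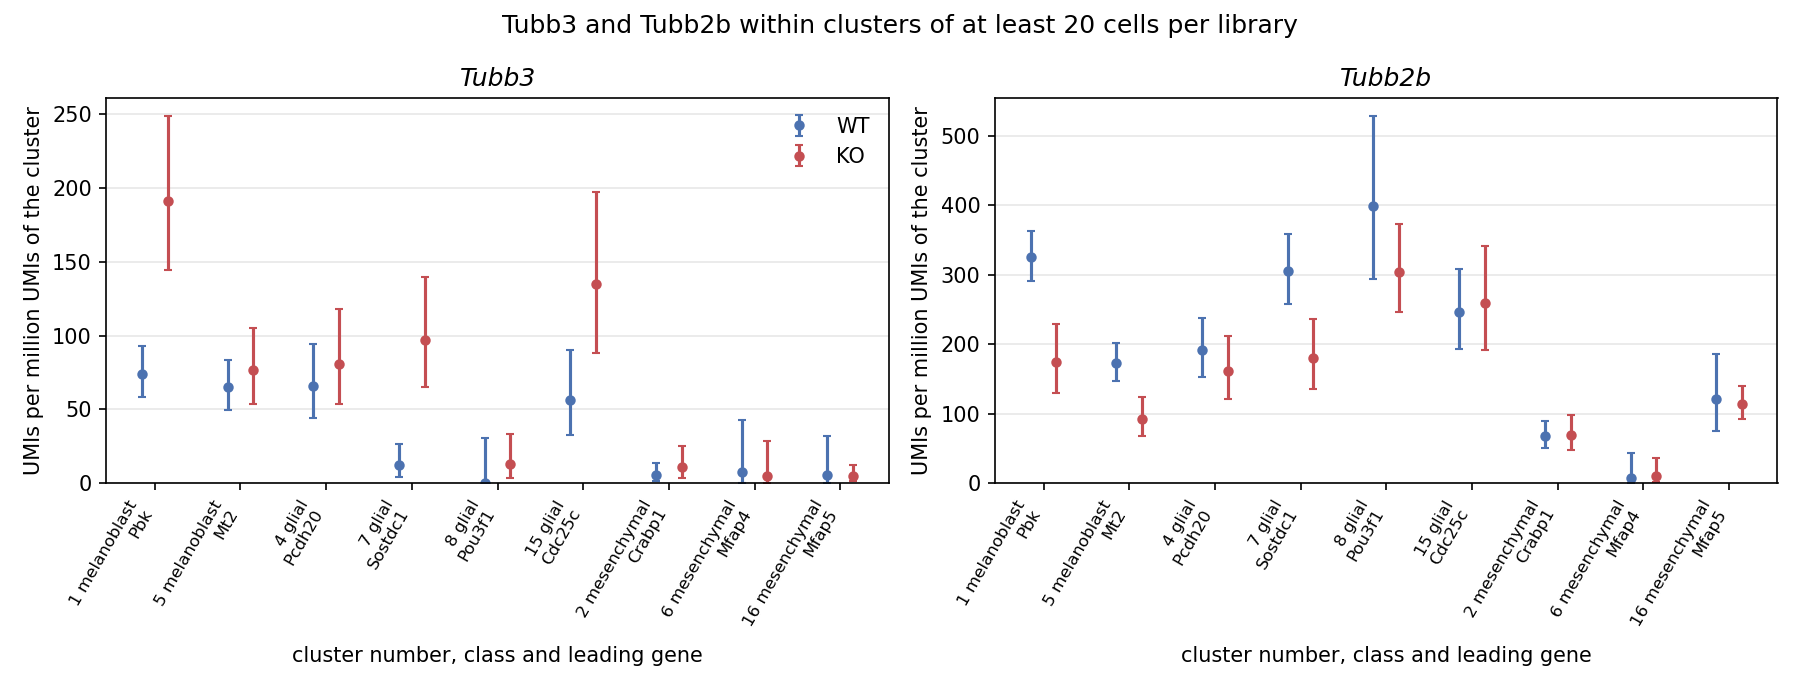
*Tubb3* and *Tubb2b* in CPM of the cluster, in WT and KO cells of the 9 clusters with at least 20 cells per library, with 95% Poisson intervals. *Tubb3* was higher in KO in cluster 7 (12.3 and 97.1 CPM) and cluster 1 (74.3 and 191 CPM), and *Tubb2b* was lower in cluster 1 (-0.90).

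Because *Tubb3* marks neurons, 12 other neuron markers were read. In melanoblast-like cells they summed to 28 WT and 9 KO UMIs (11.03 and 10.6 CPM, -0.06, -1.33 to 1.06), with *Elavl4* the most abundant in WT (21 UMIs) and *Uchl1* in KO (6 UMIs). There 9 of the 12 were at 0 in each library, among them *Elavl3*, *Snap25*, *Nefl*, *Prph* and *Rbfox3*. *Elavl4* (8.27 and 2.35 CPM, -1.81, -4.95 to 0.22) and *Uchl1* (2.36 and 7.06 CPM, 1.58, -0.33 to 3.48) pointed in opposite directions, with intervals that held 0. The part of RNA from neurons in the *Tubb3* ratio was not tested. In glial-like cells they summed to 95 and 128 UMIs (58.3 and 107 CPM, 0.88, 0.48 to 1.28), *Uchl1* was the most abundant (52 and 76 UMIs), *Isl1* went the other way (16 and 3 UMIs, -1.97, -4.39 to -0.16), 7 were at 0 in WT and 4 in KO (*Elavl3*, *Snap25*, *Th* and *Rbfox3*). In mesenchymal-like cells, of clusters 2 and 16 mainly, they summed to 149 and 124 UMIs, and *Stmn2* led with 139 and 66, while *Uchl1* (9 and 32 UMIs, 1.36, 0.26 to 2.61) and *Nefl* (0 and 13, lower limit 1.14) were higher in KO. *Nefm* (0 and 6) and *Prph* (0 and 5) had lower limits below 0. Within cluster 16, *Uchl1* had 8 and 27 UMIs and was not higher in KO (46.3 and 33.0 CPM, -0.49, -1.67 to 0.86). The 13 KO *Nefl* UMIs all lay in that cluster, where the lower limit was -0.63.

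Neuron markers by cluster were read after class values were seen. In glial-like cluster 7 they were higher in KO along with *Tubb3*, at 10 WT and 33 KO UMIs (20.5 and 110.5 CPM, 2.43, 1.38 to 3.62), of which *Uchl1* gave 8 and 23 and *Stmn2* 0 and 9. They were also higher in cluster 15 (0.91, 0.08 to 1.76) and in cluster 4 (0.82, 0.11 to 1.56), where the *Tubb3* interval held 0. A further reading, also chosen then, took the cells without any neuron-marker UMI. There *Tubb3* had 5 UMIs in 109 WT cells and 22 in 41 KO cells of cluster 7 (3.33, 1.90 to 5.09). Over all glial-like cells without such a UMI the *Tubb3* ratio was 1.00 (0.42 to 1.58), and over melanoblast-like cells 0.90 (0.52 to 1.28). In the melanoblast-like class this left out 26 of 536 cells (WT) and 7 of 139 (KO), and in cluster 15 the interval then held 0 (1.70, -0.02 to 3.51). A cell with 0 marker UMIs at this depth may still express the marker.

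Markers of several other cell types were higher in KO. In melanoblast-like cells the 12 mesenchymal markers summed to 167 (WT) and 689 CPM (KO), with *Col1a2* the most abundant and none at 0. The 11 keratinocyte markers summed to 74.1 and 576 CPM, led by *Krt10*, with *Trp63* at 0 in both libraries and *Epcam* in KO. The 8 erythroid markers found summed to 78.4 and 1119.9 CPM, led by *Hbb-bs*. *Tubb3* itself stood at 6.78 CPM in KO mesenchymal-like and 5.26 CPM in KO keratinocyte-like cells, below its 120.0 CPM in KO melanoblast-like cells, and it had 0 UMIs in KO erythroid-like cells, where the limit of 3 counts is 23.7 CPM. The 7 neutrophil markers summed to 36.2 and 215 CPM, led by *S100a8*, with *Ltf* and *Retnlg* at 0 in KO. The 12 glial markers went the other way, at 429 and 327 CPM (-0.39, -0.59 to -0.20), led by *Fabp7* in WT, with *Mbp* at 0 in KO. So did the 9 mast cell markers, at 125 and 22.4 CPM, led by *Cma1*, with *Ms4a2* and *Fcer1a* at 0 in both and *Mcpt4* in KO. In glial-like cells the 12 melanoblast markers summed to 309 and 207 CPM (-0.58), led by *Pax3* with none at 0, and the mesenchymal, keratinocyte and erythroid lists summed to 2737 and 3707, 88.3 and 635, and 87.7 and 1131 CPM. The part of this RNA in the lower ratios of other isotypes was not tested.

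Of 10 other tubulin genes, *Tubg1* alone, the γ-tubulin of microtubule nucleation, had at least 50 UMIs in each main class. Its ratios were -0.32 (melanoblast-like), -0.32 (glial-like) and -0.29 (mesenchymal-like), with intervals that held 0. Of the CCT chaperonin that folds tubulin, 7 genes were read, and 0 were past 1.5-fold in melanoblast-like or glial-like cells (medians -0.04 and -0.11). Of all genes, 6.74% were higher and 6.54% lower in melanoblast-like cells, and 6.34% and 5.53% in glial-like cells. *Cct4* was the lowest of the chaperonin genes in the first class (-0.39) and *Cct3* in the second (-0.34). In mesenchymal-like cells 1 was lower, *Cct8* (-0.60), beside 6.31% of all genes. Of prefoldin, which hands tubulin to the chaperonin, 6 genes were read and 0 were past 1.5-fold in any of the 3 classes (medians -0.12, -0.06 and -0.11). Of the folding cofactors and autoregulation genes, 5, 5 and 4 were read and 0 were past 1.5-fold (medians 0.06, -0.06 and -0.25), which is also close to these shares. *Ttc5*, which links excess tubulin to decay of tubulin mRNA, had 40 WT and 18 KO UMIs in melanoblast-like cells (0.43, -0.46 to 1.26).

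Of the tubulin modifying enzymes, 3, 3 and 2 genes were read and 0 were past 1.5-fold (medians -0.05, -0.02 and -0.13). The shares of all genes past 1.5-fold were 6.74% higher and 6.54% lower in melanoblast-like cells and 6.34% and 5.53% in glial-like cells. For mesenchymal-like cells they were 549 of 5004 genes higher and 6.31% lower. With so few enzymes read, a count of 0 cannot be told apart from these shares. *Sirt2*, a tubulin deacetylase, was the lowest of these enzymes in each class (-0.24, -0.55 and -0.20). Of the microtubule-associated and plus-end proteins, 9 were read in melanoblast-like cells, with 1 higher, *Mapre2* (0.87, -0.03 to 1.74), and 1 lower, *Mapt*, which encodes tau (64 and 6 UMIs, -1.84, -3.34 to -0.64), beside 6.74% and 6.54% of all genes. In glial-like cells 1 of 12 read was lower, *Clasp1* (-0.65, -1.45 to 0.11), beside 5.53% of all genes. In mesenchymal-like cells 1 of 8 read was lower, *Ckap5* (-1.07), beside 6.31%. The medians in the 3 classes were -0.24, 0.03 and -0.08.

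Of the stathmins and severing enzymes, 4, 4 and 3 genes were read (medians 0.02, -0.21 and -0.53). *Stmn1*, which binds tubulin dimers, stood at 1128 and 889 CPM in melanoblast-like cells (-0.34) and at 975 and 701 CPM in mesenchymal-like cells (-0.48), whereas glial-like cells had 1259 and 1342 CPM (0.09). *Stmn2* was the 1 gene of the list past 1.5-fold, lower in mesenchymal-like cells (-1.54), beside 6.31% of all genes. Within cluster 2, which held 138 of its 139 WT UMIs, it was at -0.50 (-0.96 to -0.05), and cluster 16 had 0 and 7 UMIs. Of the nucleation complex, 4, 5 and 3 genes were read (medians -0.28, -0.31 and -0.29), with *Cdk5rap2* higher in glial-like cells (0.68, -0.01 to 1.37), beside 6.34% of all genes, and *Mzt1* lower in mesenchymal-like cells (-0.65), beside 6.31%. Of the transport motors, 16, 17 and 15 were read (medians -0.05, -0.10 and -0.0045), and *Dync1li2* was lower in glial-like cells (-0.61, -1.34 to 0.09), beside 5.53% of all genes.

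The mitotic spindle list was lower in KO mesenchymal-like cells, as were *Tuba1b*, *Tuba1c* and *Tubb4b*. Its 25 genes summed to 1714 CPM in WT and 899.9 CPM in KO there (-0.93), and 14 of 19 genes read were at least 1.5-fold lower, beside 6.31% of all genes, *Kif23* the lowest (-1.51), with a median of -0.77. In melanoblast-like cells 3 of 23 were lower, beside 6.54% of all genes, with *Kif20a* the lowest (-1.42), *Racgap1* the highest (0.53) and a median of -0.31. In glial-like cells 0 of 20 were past 1.5-fold, beside 6.34% of all genes higher and 5.53% lower, and the median was 0.09. Within cluster 2 the spindle sum was -0.74 and *Tuba1b* -0.28, whereas within cluster 16 they were -0.03 and 0.50, and within cluster 6 0.58 (0.15 to 1.03) and -0.11. In mesenchymal-like cells the 11 keratinocyte markers summed to 75.2 (WT) and 597 CPM (KO), and the 8 erythroid markers to 82.7 and 1219 CPM. Neutrophil (29.1 and 221 CPM), pericyte (156 and 307), muscle (54.5 and 166) and glial markers (210 and 330) were also higher in KO. Melanoblast (494 and 269 CPM), macrophage (121 and 63.7) and mast cell markers (116 and 20.3) were lower. The part of cycling cells and of this RNA in the *Tuba1b*, *Tuba1c* and *Tubb4b* ratios was not tested.

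Over the 8 sums of 4 classes by 2 libraries, the genes with the pattern most like *Tubb3* among 8210 genes were *mt-Nd1* (Pearson r 0.995), *Phf20l1* (0.987), *Gnb1* (0.977), *Smad4* (0.975) and *Pde8a* (0.973). Of the other isotypes, *Tubb2b* (0.85) and *Tubb5* (0.77) were the most alike and *Tubb2a* (-0.79) the least. The 8 points share 2 libraries and their depths, and these values are a description.

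*Tubb3* (ENSMUSG00000062380) lies at chr8:123411424-123422015 on the plus strand (GRCm38, GENCODE M21), 679 bases after the end of *Mc1r*, which encodes the melanocortin receptor of pigment cells and lies on the same strand. *Mc1r* was named after its values were seen. Melanoblast-like cells had 129 (WT) and 27 (KO) of its UMIs (50.8 and 31.8 CPM, -0.68, -1.33 to -0.07), so the 2 neighbours pointed in opposite directions. *Gm20388*, also named after its values were seen, spans *Tubb3* on the same strand, shares 0 exon bases with it and had 0 UMIs in either library.

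Isotypes differ most at the end of the coding sequence, which encodes the tail on the microtubule surface where motors and modifying enzymes act. The last 60 coding bases are shown for *Tubb3* and for the β-tubulins whose ratios were set beside it, from GENCODE M21 on GRCm38, with the stop codon in capitals. They lie at chr8:123421623-123421682 (plus strand), chr13:34074468-34074527, chr13:34127471-34127530 and chr17:35834982-35835041 (minus strand).
Tubb3: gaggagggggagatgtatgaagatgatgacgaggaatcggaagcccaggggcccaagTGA
Tubb2a: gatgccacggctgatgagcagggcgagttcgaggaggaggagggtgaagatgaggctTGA
Tubb2b: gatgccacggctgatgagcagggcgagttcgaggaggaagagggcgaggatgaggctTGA
Tubb5: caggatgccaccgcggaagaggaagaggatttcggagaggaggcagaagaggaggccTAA
Over these bases *Tubb3* was 47.5% identical to *Tubb2a* and 50.8% to *Tubb5*, and over the whole coding sequence 81.4% to *Tubb5* and 83.6% to *Tubb2b*, whereas *Tubb2a* and *Tubb2b* were 96.5% identical over the whole.

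The first 30 coding bases are shown because the start of a nascent tubulin is what the autoregulation factor encoded by *Ttc5* reads. Capitals mark the first 4 codons.
Tubb3: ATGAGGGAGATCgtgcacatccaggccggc
Tubb2b: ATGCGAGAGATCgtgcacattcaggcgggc
Tubb5: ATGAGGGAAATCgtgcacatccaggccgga
*Tubb3* and *Tubb4b* share these 4 codons base for base. The 4 codons of *Tubb2b* and *Tubb5* differ from them in bases only and encode the same amino acids, Met-Arg-Glu-Ile.

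Reads from sequence that near-identical genes share cannot be assigned to either gene by sequence alone. The read length of these 2 libraries was assumed to be 75 bases, and the shares below hold for that length. Among 75-base windows of the last 500 transcript bases, 0% of those of *Tubb3*, *Tubb2b*, *Tubb4a* and *Tubb5* occurred in another gene. The share was 33.1% for *Tubb2a*, with *Tubb2b* among the genes that hold its windows, and 19.7% for *Tubb4b*, and 53.8%, 61.5% and 66.2% for *Tuba1a*, *Tuba1b* and *Tuba1c*. The UMIs of the α-tubulins and of *Tubb2a* and *Tubb4b* are therefore uncertain, and reads from shared windows may be missing from their counts. How such reads were handled was not checked.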

How the data were processed

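Single-cell 3′ RNA counts were read for 1 WT and 1 KO library of sorted tdTomato+ cells of E15.5 trunk skin. The authors counted UMIs with Cell Ranger 2.2.0 on mm10, per the submitters' notes, and deposited raw counts per gene and barcode, without normalization. Barcodes with under 100 genes, over 40000 UMIs or over 10% mitochondrial UMIs were removed (6 WT, 18 KO). Both libraries were clustered together with scanpy 1.11.5 and igraph 0.11.9 (scaling to 10000, 2000 variable genes of which 1994 were used, 30 components, 15 neighbours, Leiden resolution 1, seed 0), with tubulins, the HIRA complex, sex-linked genes and reporters held out. A cluster took the class with the highest share of raised markers, if at least 3 were raised and its leading genes named no other class. Raised markers were found in at least 10% of its cells and at least 1 log2 unit above the other cells, with 10 CPM added. Clusters of low depth whose leading genes held none of these markers stayed unnamed. This gave 22 clusters, 1 of them unnamed. Scrublet called 9 WT and 6 KO cells, which were kept.

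Intervals were exact Poisson for CPM, Clopper-Pearson for shares and conditional binomial for ratios, at 95%, from scipy 1.17.1 with numpy 2.4.6, pandas 2.3.3, anndata 0.12.19 and Python 3.11.15. Plots used matplotlib 3.10.9. Limits at 0 counts were set at 3 counts. The members and lists were chosen with earlier results of these data known. Genes named were the isotypes, other tubulin genes with at least 50 UMIs, in each of the 10 lists of genes that act with tubulin the highest and lowest ratio per main class (those given are a selection), the 5 genes most like *Tubb3* by log2(CPM + 10) among genes with at least 100 UMIs, *Hira*, sex-linked genes and class markers. Alternatives changed filters, clustering, doublets, depth, averaging and scaling. *Cct6a* and *Ahsp* were not used here. The ratio and interval code was tested on simulated data.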

Additional observations from a re-analysis of the deposited data

Results flagged for a closer look

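*Tubb2a* and *Tubb4b* were marked for pointing one way in one class and the other way in another, with counting intervals on opposite sides of 0. The log2 ratio of *Tubb2a* was 0.57 in macrophage-like cells and -0.79 in melanoblast-like cells. That of *Tubb4b* was 0.54 in macrophage-like cells, -0.45 in melanoblast-like cells and -0.57 in mesenchymal-like cells, held by clusters 2 and 16. The macrophage-like class held 36 KO cells, and in it mesenchymal markers summed to 805 CPM in WT and 4132 CPM in KO and neutrophil markers to 603 and 3173 CPM. The difference between classes was not tested.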

How the results depend on the processing

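The ratio of *Tubb3* stayed above 0 under all 11 alternatives in melanoblast-like (0.52 to 1.32) and glial-like cells (0.73 to 1.10). Its odds against other β-tubulins ranged from 0.82 to 1.59 and from 0.88 to 1.22. Some alternatives could hardly change these values. Leiden resolution 0.5 and tubulin genes among the variable genes left the cell numbers of both classes as they were (536 and 139, 446 and 254). Of 99 values of the main comparisons under alternatives, 92 stayed within the interval of the value given in the report. Of 286 values of single isotypes, 266 did. Where the interval given in the report left out 0, the direction was reversed for 1 and 5 of these values.

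Clustering with at least 500 genes per cell gave, in melanoblast-like cells, 1.32 for *Tubb3*, 0.23 for the sum of other isotypes, 0.38 for *Tubb4b*, 0.25 for *Tubb5*, 0.26 for *Tuba1b*, 0.38 for *Tuba1c* and 0.28 for *Tuba1a*. There a cluster of 4 WT and 93 KO cells led by haemoglobin genes was left unnamed, although 9 of 12 melanoblast markers were raised in it. So 55 KO cells remained in the class, 45 of them in the cycling cluster. The filter without new clustering removes no cell of the 3 classes, so it is not counted as an alternative. Holding out haemoglobin genes, chosen after seeing the data, gave 0.93 for *Tubb3* and -0.31 for the others.

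Thinning to 2000 UMIs gave 0.52 for *Tubb3* and 0.82 for its odds in melanoblast-like cells. In mesenchymal-like cells it gave -1.72 for *Tuba1c* and -0.28 for the sum of isotypes other than *Tubb3*. In that class the sum gave -0.075 with each library clustered alone and -0.10 with clusters weighted by WT cell numbers, where *Tubb5* gave 0.0035. The cause was not tested. No paired analysis was possible because each genotype had 1 library. Scaling without mitochondrial, haemoglobin and ribosomal protein genes shifted the ratios by -0.02, -0.01 and -0.03 in the 3 classes. Depth limits *Tubb3* in mesenchymal-like and macrophage-like cells, with at most 10 UMIs in a library.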

Other observations

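Tubulin levels also differed between the smaller classes, which held too few cells in a library for a comparison of genotypes. KO keratinocyte-like cells (81 cells) had *Tubb4b* at 536.5 CPM, above its level in the 4 classes with at least 20 cells in both libraries. WT mast cell-like cells (92 cells) had *Tubb5* at 562 CPM. Erythroid-like cells (19 KO cells) had *Tubb5* at 94.7 CPM and all 10 isotypes together at 197 CPM. In these KO cells *Hba-a1*, *Hba-a2*, *Hbb-bs* and *Hbb-bt* stood at 232223, 233083, 353891 and 104970 CPM. All other genes are therefore low on this scale there, and these values cannot be set beside those of other classes.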
